A study of Mus musculus with 24 samples.

Results

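The 10 genes described here carry Notch signalling from the cell surface to the nucleus: the receptors Notch1, Notch2, Notch3 and Notch4, the ligands Dll1, Dll3, Dll4, Jag1 and Jag2, and Rbpj, which encodes the DNA-binding protein of the pathway. They were chosen by name, out of 21938 protein-coding genes in the mouse annotation, and all 10 were found in it. MYT1L, a zinc finger transcription factor of neurons, was mapped in mouse cortex by CUT&RUN, a method that frees the DNA around a bound protein with a nuclease tethered to its antibody. A site counted for a gene when it lay in the gene body or within 5 kb of an annotated transcription start.

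Sites were given for wildtype cortex at E18.5, for wildtype cortex at P0 (the day of birth), for adult cortex heterozygous for Myt1l (HET) and for adult wildtype (WT) cortex. The labels give the strain as C57BL/6J, whereas the study's supplement describes the Myt1l line as made in and bred to C57BL/6N. The adults were 3 months old, and the methods place the tissue in the prefrontal cortex. HET mice carry a CRISPR/Cas9-induced frameshift in the germline, in every cell, and the study's supplement describes a shortened MYT1L protein made from this allele. The study reports that this shortened protein did not enter the nucleus and expects it to lack function. For every group 3 libraries were made with the MYT1L antibody and 3 with IgG, an antibody without a target, 24 in all. Per the methods, cells were prepared from each animal and divided between both antibodies, so the MYT1L and IgG libraries of a replicate share an animal; the labels do not repeat this. The E18.5 and P0 libraries carry 1 in the label seq_id and both adult groups carry 2. What seq_id stands for is not stated, and it cannot be told apart from age between the younger and the adult lists.

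What was deposited is 1 merged list of site positions per group, with 14477 sites at E18.5, 40698 at P0, 56937 in adult HET and 32145 in adult WT. Sites were widest at E18.5 (median 593 bp), then P0 (276 bp), adult WT (167 bp) and adult HET (108 bp), and together they covered 10003 kb at E18.5, 14381 kb at P0, 6560 kb in adult HET and 6581 kb in adult WT. The lists hold no height, score or read count and no value per library. Depth is therefore unknown, no replicate error can be given, and every comparison below is a description without a test. Neither the tissue nor the heterozygosity could be checked from positions alone.

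In Notch signalling, a ligand of the Delta or Jagged kind on one cell binds a Notch receptor on its neighbour, and the receptor is cut so that its intracellular part enters the nucleus. There it joins RBPJ and Mastermind proteins and turns on genes such as those of the Hes and Hey families; without it, RBPJ recruits corepressors and keeps the same genes low. In the developing cortex the pathway is known for holding cells as neural progenitors, while newborn neurons carry the ligands. MYT1L is known to bind the word AAAGTT and to repress genes foreign to neurons.

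The 2 promoters below are shown because they lay wholly inside MYT1L sites at both E18.5 and P0 and in no adult site. They are RefSeq promoters of build GRCm38.p6 (mm10), from 250 bases before to 50 after a start, read on the plus strand along which both genes run. Capitals mark AAAGTT and TGGGAA, the core word that RBPJ is known to bind, on either strand (AACTTT and TTCCCA when read in reverse).

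Notch2 promoter, chr3:98013288-98013587: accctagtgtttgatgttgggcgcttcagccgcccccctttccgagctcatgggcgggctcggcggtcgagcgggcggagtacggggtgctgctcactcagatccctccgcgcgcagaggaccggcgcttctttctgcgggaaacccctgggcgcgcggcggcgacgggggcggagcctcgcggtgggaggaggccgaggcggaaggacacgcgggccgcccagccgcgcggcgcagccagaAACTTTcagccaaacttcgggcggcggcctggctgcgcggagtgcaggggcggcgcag

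Rbpj promoter, chr5:53590236-53590535: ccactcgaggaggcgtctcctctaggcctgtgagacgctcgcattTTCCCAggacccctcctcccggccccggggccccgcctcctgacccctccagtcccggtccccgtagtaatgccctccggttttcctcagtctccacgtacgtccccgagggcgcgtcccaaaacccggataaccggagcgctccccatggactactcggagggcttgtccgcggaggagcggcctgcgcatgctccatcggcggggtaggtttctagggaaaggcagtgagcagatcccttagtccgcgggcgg

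Of the 12 RefSeq promoters matched for the 10 genes, only that of Notch2 held AAAGTT, once, against 14.1% of 32851 promoters of the same length. TGGGAA stood in both promoters listed for Rbpj, which overlap, and in none of the other 10, against 25.6% of all promoters. TTGGCA, the word of nuclear factor I, and CAGATG, a word of neurogenic basic helix-loop-helix factors, were in none of the 12 (14.1% and 17.2% of all promoters). A match describes the letters and is not itself a site.

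The next set shows AAAGTT inside the MYT1L sites of these genes, with 12 bases on either side, each on the strand that reads AAAGTT. It was chosen to hold the words shared by E18.5 and P0 sites outside the Notch2 promoter, the tandem pair at Jag1, the pair in the Notch2 intron, and the adult words.

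Dll1, E18.5 and P0, chr17:15377830-15377859, plus strand: ccaaacactttcAAAGTTtcagaatcaaca

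Dll1, E18.5 and P0, chr17:15378180-15378209, plus strand: atgtttcctgggAAAGTTactttctgagaa

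Rbpj, E18.5 and P0, chr5:53590749-53590778, plus strand: ctgggaaccgggAAAGTTgcgggcgtctga

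Jag1, P0, chr2:137117282-137117311, minus strand: ggaaagtttttcAAAGTTcccagcagagtc

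Jag1, P0, chr2:137117292-137117321, minus strand: tctgactccgggAAAGTTtttcaaagttcc

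Notch2 intron, P0, chr3:98063233-98063262, plus strand: cctggctttgggAAAGTTaaaagggaactt

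Notch2 intron, P0, chr3:98063246-98063275, minus strand: gcgtaaccagtgAAAGTTcccttttaactt

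Notch2 intron, adult WT, chr3:98118359-98118388, minus strand: ctaaaatagtcaAAAGTTaagactcaaaaa

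Rbpj intron, adult WT, chr5:53584308-53584337, plus strand: ctggagtcatagAAAGTTgcaagcaaccat

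MYT1L sites lay within 5 kb of a start of 4 of the 10 genes at E18.5, 7 at P0, 3 in adult HET and 1 in adult WT. At E18.5 these were Notch2, Notch4, Dll1 and Rbpj, against 31.7% of all protein-coding genes. At P0 Notch3, Jag1 and Jag2 joined the same 4 genes, against 48.7% of all. In adult HET they were Notch1, Jag1 and Rbpj, a share close to the 30.4% of all genes, and in adult WT only Notch4, against 24.6%. With only 10 genes, each gene carries 10% of the count. Restricted to starts of protein-coding transcripts, 3 of 10 genes had such a site at E18.5 (30.3% of all genes) and 6 at P0 (46.6%). By that rule 1 gene, Rbpj, had one in adult HET (25.2%) and 0 in adult WT (21.2%).

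All 10 genes have at least 1 CpG-rich start, meaning GC content above 50% and observed over expected CpG above 0.6 in the 1 kb around it. Among the 11224 protein-coding genes of that kind the share with a site within 5 kb came to 50.9% at E18.5, 74.1% at P0, 36.6% in adult HET and 33.9% in adult WT. At P0 and in adult HET the 10 genes were within 1 gene of those shares, so nothing about them is read from these counts. The plot of shares sets the 10 genes beside the rest of the pathway and all genes.

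**Figure D1:**
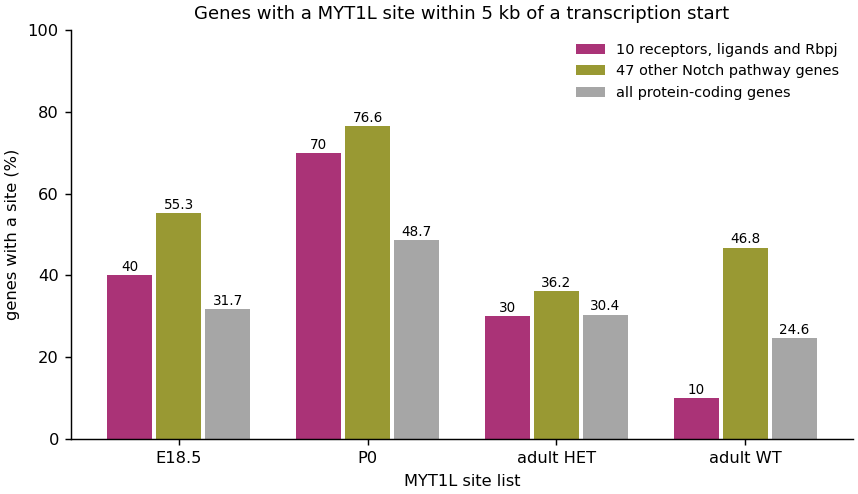
Share of genes (y axis, percent) with at least 1 MYT1L site within 5 kb of a transcription start in each site list (x axis); bars are the 10 receptors, ligands and Rbpj, the 47 other Notch pathway genes and all 21938 protein-coding genes. The 10 genes lie within 1 gene of all genes at E18.5 and in adult HET, above them at P0 and below them in adult WT. Genes with a CpG-rich start, as all 10 have, are not drawn; their shares are 50.9% at E18.5, 74.1% at P0, 36.6% in adult HET and 33.9% in adult WT. Beside the other pathway genes the 10 genes are within 1 gene at P0 and in adult HET and lower at E18.5 (4 of 10 against 55.3%) and in adult WT (1 of 10 against 46.8%). No difference was tested.

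Counting the gene body as well changed only the adult lists. Sites then touched 4 of 10 genes at E18.5 (36.4% of all genes), 7 at P0 (54.1%), 4 in adult HET (44.7%) and 4 in adult WT (35.6%). The adult HET genes were Notch1, Notch2, Jag1 and Rbpj, and the adult WT genes were Notch2, Notch3, Notch4 and Rbpj. In the promoter, from 1 kb before to 100 bp after a start, sites lay at 4 genes at E18.5 (26.3% of all) and 6 at P0 (38.3%; Notch2, Notch4, Dll1, Jag1, Jag2 and Rbpj). Notch4 counted here only through starts near its 3′ end, of shorter transcripts not annotated as protein-coding. No promoter of the 10 genes was touched in either adult list, where 9.08% of all genes in HET and 11.9% in WT were. With only 10 genes, nothing is read from that absence.

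In all, 7 sites at E18.5, 27 at P0, 5 in adult HET and 8 in adult WT belonged to these genes. They summed to 6286 bp at E18.5, 9098 bp at P0, 406 bp in adult HET and 1770 bp in adult WT. By the place of the midpoint, promoters held 3 of 7 at E18.5 and 10 of 27 at P0, and none of 5 in adult HET and of 8 in adult WT. Introns held 3 of 7 at E18.5, 11 of 27 at P0, all 5 in adult HET and 7 of 8 in adult WT. Rbpj and Notch2, the longest of the genes, held most of the sites, as the plot by gene shows.

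**Figure D2:**
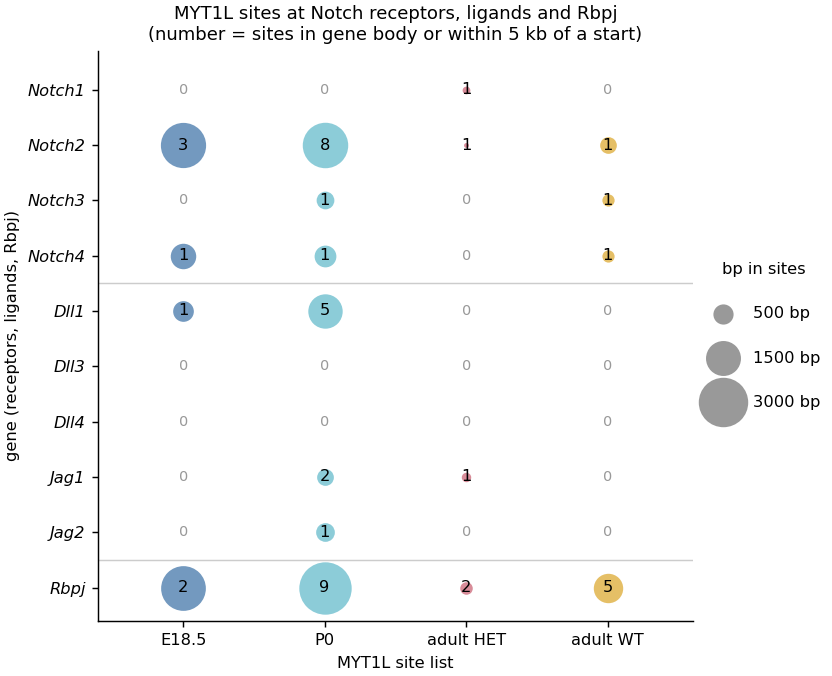
MYT1L sites at each gene (y axis) in each site list (x axis); the number is the count of sites in the gene body or within 5 kb of a start, and the area of the disc is the number of bp they cover. Rbpj and Notch2 carried sites in all 4 lists, and Dll3 and Dll4 in none.

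Among the receptors, Notch2, the receptor with the longest gene (137 kb, chr3:98013527-98150361, plus strand), had 3 sites at E18.5, 8 at P0, 1 in adult HET and 1 in adult WT. At E18.5 a 647 bp site (chr3:98013286-98013932) covered its promoter, and at P0 a 556 bp site (chr3:98013192-98013747) lay over the same place, sharing 462 bp with it. The AAAGTT of the promoter printed above fell 76 bp from the midpoint of the E18.5 site and 64 bp from that of the P0 site. The nearest adult sites were 71187 bp from the E18.5 promoter site in adult HET and 71053 bp in adult WT.

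Inside the Notch2 gene, a second pair of sites lay 93.2 kb along it. The E18.5 site there was 821 bp wide (chr3:98106288-98107108), wider than 74.7% of its list, and the 749 bp P0 site (chr3:98106346-98107094), wider than 92.8% of its list, fell wholly within it. The bases around the midpoint of the P0 site are given because this was the widest P0 site inside an intron of the 10 genes; they hold no AAAGTT, and the capitals mark CAGATG in reverse.

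Notch2 intron, chr3:98106645-98106795, plus strand: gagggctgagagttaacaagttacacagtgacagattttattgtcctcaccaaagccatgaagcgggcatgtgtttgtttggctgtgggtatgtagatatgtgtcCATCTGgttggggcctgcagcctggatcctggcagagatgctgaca

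Another E18.5 site of 1042 bp (chr3:98042862-98043903) lay 29.9 kb into Notch2 and met a 170 bp P0 site over 41 bp only. At P0 alone, 4 sites of 155 to 393 bp stood between 49.4 and 54.2 kb. Of the 6 AAAGTT words in Notch2 sites, 4 lay in these, including the pair printed above, which reads in opposite directions. A further P0 site of 128 bp, 22.0 kb into the gene, lay in an exon of the noncoding gene Gm42819.

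The adult lists touched Notch2 elsewhere. The adult HET site was 30 bp wide (chr3:98112866-98112895), made up entirely of repeat sequence, and only 0.0299% of the sites of its list were narrower. The adult WT site was 342 bp wide (chr3:98118218-98118559), wider than 87.3% of its list, with AAAGTT 14 bp from its midpoint. Repeat sequence made up 45.6% of it, and a start of the noncoding gene Gm42820 was within 5 kb. Both adult sites lay in an intron, 99.4 kb and 105 kb along the gene, and 5322 bp separated them.

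Notch4, a receptor best known from blood vessel endothelium, was the only one of the 10 genes where a younger and an adult list met. Its sites lay at the 3′ end of the gene, 22.7 to 23.4 kb from the gene start. The E18.5 site was 797 bp (chr17:34586615-34587411), the P0 site 582 bp (chr17:34587115-34587696) and the adult WT site 183 bp (chr17:34587547-34587729). The P0 site shared 297 bp with the E18.5 site and 150 bp with the adult WT site, while the E18.5 and adult WT sites did not touch; adult HET had none. These sites passed the 5 kb rule through starts of shorter Notch4 transcripts that are not annotated as protein-coding. All 3 were also within 5 kb of starts of Gpsm3, a regulator of G protein signalling, and Pbx2, a homeodomain protein. The part of the sites in any of these genes was not tested. None held AAAGTT.

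Notch3, the receptor of mural cells of vessels, had a 386 bp site at P0 (chr17:32166047-32166432), in an intron 613 bp after its start, and an intronic 184 bp site in adult WT (chr17:32142923-32143106), 5.19 kb before an internal start and so just outside the 5 kb rule. E18.5 and adult HET had none. The P0 site held 1 AAAGTT.

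Notch1, the main receptor of neural progenitors, had no site at E18.5, at P0 or in adult WT. Its only site was in adult HET, 74 bp wide (chr2:26472432-26472505), narrower than most of its list (12.2% were narrower still), in an intron 44.2 kb from the gene start and 1.97 kb before the start of a shorter transcript. The start of the microRNA gene Mir6996 was also within 5 kb.

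Among the ligands, Dll1, which newborn neurons display to neighbouring progenitors, had 1 site at E18.5, 5 at P0 and none in either adult list. The E18.5 site was 525 bp wide (chr17:15377782-15378306) with its midpoint 1.17 kb before the Dll1 start, inside an exon of the noncoding gene A930024N18Rik. It fell wholly within an 874 bp P0 site (chr17:15377631-15378504), wider than 95.5% of its list, and the Dll1 words printed above stood in both. The 4 other P0 sites were 98 to 184 bp wide and lay around Dll1 starts, with gaps of 221 to 663 bp between neighbours. Together the P0 sites covered 1451 bp within 5 kb of Dll1 starts, more than for 95.4% of all protein-coding genes, a rank that includes genes without any such site.

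Jag1, the ligand whose human counterpart is mutated in Alagille syndrome, had 2 sites upstream of its start at P0 and 1 intronic site in adult HET. The P0 sites were 135 bp (chr2:137117276-137117410) and 209 bp (chr2:137117439-137117647), 28 bp apart. The 135 bp site was narrow for its list (9.47% were narrower) and held both Jag1 words printed above, whose first bases lie 10 bp apart. It also held TGGGAA, a match of which overlaps the AAAGTT nearer to the Jag1 start. The adult HET site was 109 bp (chr2:137087977-137088085), 28.6 kb into the gene and 2.08 kb before the start of a shorter transcript, and neither E18.5 nor adult WT had a site.

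Jag2 had a single site in the 4 lists, of 430 bp at P0 (chr12:112929947-112930376), 385 bp before its start. Dll3, a ligand that acts inside the cell that makes it rather than on neighbours, and Dll4, the ligand of sprouting vessels, had none in any list. The nearest site to Dll3 was 9.66 kb away at E18.5, 9.77 kb at P0, 7.75 kb in adult HET and 36.6 kb in adult WT. Around Dll4 the gap was larger, at 37.0 kb at E18.5, 27.1 kb at P0, 65.7 kb in adult HET and 53.8 kb in adult WT.

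Rbpj, through which all receptors act on DNA, had 2 sites at E18.5, 9 at P0, 2 in adult HET and 5 in adult WT. At E18.5 a 2216 bp site (chr5:53588614-53590829) ran across the cluster of starts that lies inside the annotated gene, about 124 kb from its outermost start. It was wider than 99.2% of the E18.5 sites. At P0 the same stretch held 3 sites, of 676 bp (chr5:53588509-53589184), 705 bp (chr5:53589210-53589914) and 609 bp (chr5:53590197-53590805), separated by 25 bp and 282 bp. They covered 1885 bp, or 85.1%, of the E18.5 site. The Rbpj promoter printed above lay in this stretch.

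Counted over all sites within 5 kb of a start, Rbpj had 2216 bp at E18.5, 2565 bp at P0, 193 bp in adult HET and none in adult WT. Only 307 protein-coding genes had more bp at E18.5 and 204 at P0, so that 98.6% and 99.1% of genes had fewer. These ranks include the many genes without any such site. Rbpj also has 12 annotated starts, which gives it more searched sequence than genes with fewer starts, and no rank among like genes was made. At P0, 2 small sites of 136 and 178 bp lay in the 5′ part of the transcripts after the cluster of starts, and the sixth, of 261 bp, at an internal start 173 kb along the gene. The locus maps show this block above an empty stretch in adult WT.

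**Figure D3:**
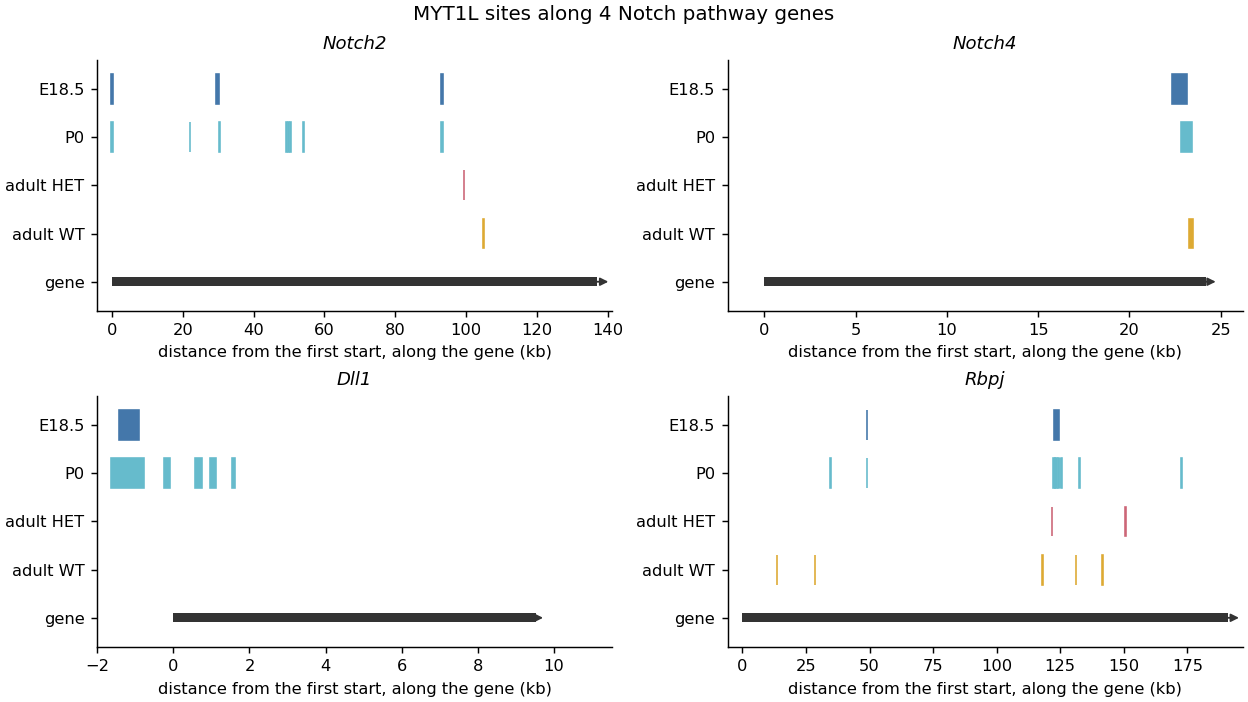
MYT1L sites along Notch2, Notch4, Dll1 and Rbpj, with distance in kb from the outermost start on the x axis, the 4 site lists from top to bottom and the gene body as a black bar pointing in the direction of transcription. Blocks are drawn to scale with a thin outline, so the narrowest sites look slightly wider than they are. The Rbpj block near 124 kb, the Notch2 promoter and the Dll1 upstream site occur at E18.5 and P0 and in neither adult list, and the Notch4 sites step along the 3′ end. The adult sites nearest to the E18.5 Rbpj block are 742 bp from it in adult HET and 4058 bp in adult WT.

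A second Rbpj site shared by both younger lists lay in an intron 49 kb into the gene. The P0 site was 351 bp (chr5:53514986-53515336) and held the whole of the 238 bp E18.5 site, which ends at the same base. In adult HET the 2 Rbpj sites were 120 bp (chr5:53587752-53587871), in an intron 2.40 kb before a start, and 73 bp (chr5:53616787-53616859), of which 60.3% was repeat sequence. The 120 bp site lay 742 bp from the 2216 bp E18.5 site and 637 bp from the nearest P0 site. The adult WT sites, all intronic and all beyond 5 kb of a start, were 208 bp (chr5:53479615-53479822), 132 bp (chr5:53494564-53494695), 476 bp (chr5:53584080-53584555), 128 bp (chr5:53597201-53597328) and 117 bp (chr5:53607779-53607895). The widest of these, wider than 95.9% of its list, held the adult Rbpj word printed above, 6 bp from its midpoint, and 33.8% of it was repeat sequence. No Rbpj site of either adult list met one of another list.

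Because long genes offer more room, the counts in gene bodies were read against genes of the same length class. Among the 2492 genes over 100 kb, the class of Notch2 and Rbpj, 65.4% had a site in or near the body at E18.5, 89.4% at P0, 94.5% in adult HET and 85.3% in adult WT, and the class averaged 1.60 sites at E18.5, 4.94 at P0, 6.07 in adult HET and 3.83 in adult WT. Both Rbpj and Notch2 were above these means at E18.5 and P0 and below them in adult HET, while in adult WT Rbpj, with 5 sites, was above and Notch2, with 1, below. The class has no upper length limit, and its medians were lower, at 1 site at E18.5, 3 at P0, 4 in adult HET and 2 in adult WT. Both genes fell on the same side of the medians as of the means in every list. Of genes from 30 to 100 kb, as Notch1, Notch3 and Jag1 are, 43.2% had a site at E18.5, against 0 of these 3 genes. At P0 the shares were 69.1% of that class and 2 of 3 genes, in adult HET 64.4% and 2 of 3, and in adult WT 48.9% and 1 of 3. Of the 5 genes under 30 kb, 2 had a site at E18.5, 3 at P0, 0 in adult HET and 1 in adult WT, beside 28.8%, 42.5%, 28.9% and 22.1% of their class.

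All 7 E18.5 sites at these genes met a P0 site by at least 1 bp, where 88.3% of all E18.5 sites did, and 9 of the 27 P0 sites met an E18.5 site, or 33.3%, where 34.8% of all P0 sites did. These 9 lay at Rbpj (4), Notch2 (3), Notch4 (1) and Dll1 (1). The remaining 18 P0 sites met no other list, 66.7% beside 61.4% of all P0 sites, a like share. Of the 8 adult WT sites, 7 met no other list, and so did all 5 adult HET sites, beside 81.6% and 92.4% of all sites of those lists.

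Between the adult lists, none of the 5 HET sites met a WT site, where 4.90% of all HET sites did, and none of the 8 WT sites met a HET site, where 8.38% of all WT sites did. With so few sites, 0 is near what those shares give. The adult WT sites met P0 once in 8, at Notch4 (12.5%, beside 10.4% of all). The Notch4 pair was also the only P0 site to meet adult WT, 3.70% of 27 beside 7.99% of all P0 sites. None of the E18.5 sites met adult WT or adult HET, where 18.4% and 10.2% of all E18.5 sites did. With only 7 E18.5 sites, nothing is read from that absence.

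In width, the E18.5 sites at these genes ran from 238 to 2216 bp with a median of 797 bp, and 5 of 7 were wider than the median of their list. At P0 they ran from 98 to 874 bp with a median of 222 bp, and 12 of 27 were wider. The adult HET sites ran from 30 to 120 bp with a median of 74 bp (2 of 5 wider), and the adult WT sites from 117 to 476 bp with a median of 183.5 bp (5 of 8 wider). The plot of widths shows that most sites fell within the range of their own list.

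**Figure D4:**
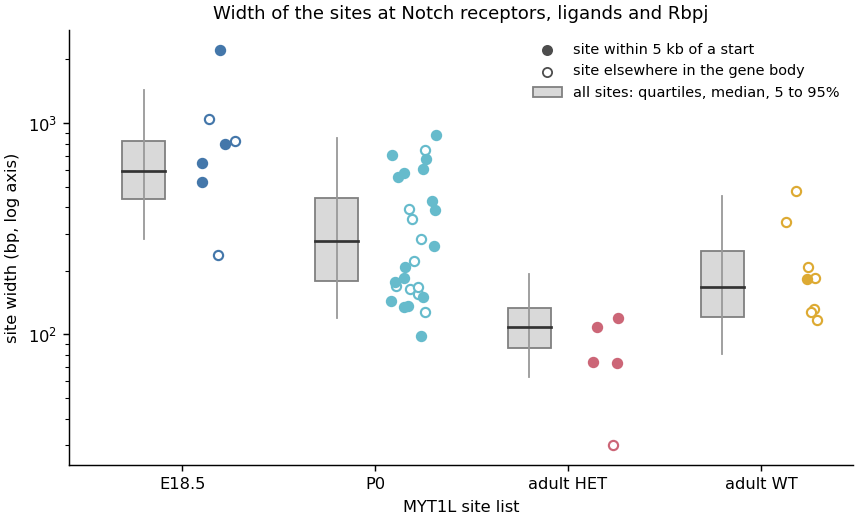
Width of the sites at the 10 genes (points, log axis in bp) in each site list; filled points lie within 5 kb of a start and open points elsewhere in a gene body. Grey boxes give the quartiles and median of all sites of the list and grey lines its 5th to 95th percentile. Above the line of their list stand the 2216 bp Rbpj site at E18.5, the 874 bp Dll1 site at P0 and the 476 bp Rbpj site in adult WT, and below it the 238 bp Rbpj site at E18.5, the 98 bp Dll1 site at P0 and the 30 bp Notch2 site in adult HET.

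Within 75 bp of the midpoint AAAGTT stood in 0 of 7 sites at E18.5, 4 of 27 at P0, 0 of 5 in adult HET and 2 of 8 in adult WT, beside 15.2%, 14.6%, 14.5% and 13.8% of all sites. Over the whole site it stood in 3 of 7 at E18.5 (44.3% of all), 9 of 27 at P0 (27.4%), 0 of 5 in adult HET (11.3%) and 2 of 8 in adult WT (17.5%). In all, 15 AAAGTT positions fell in sites of these genes: 6 at Notch2, 3 at Dll1, 3 at Rbpj, 2 at Jag1 and 1 at Notch3. The Notch2 promoter word, 2 of Dll1 and 1 of Rbpj lay in sites of both E18.5 and P0.

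Of the other words, TGGGAA stood within 75 bp of the midpoint of 6 of 27 P0 sites (13.7% of all P0 sites) and 1 of 7 E18.5 sites (13.9%), and in none of the adult HET (11.8%) or adult WT (14.3%) ones. In the same window CAGATG stood in 1 of 7 at E18.5 (13.8%), 2 of 27 at P0 (12.9%), 1 of 5 in adult HET (10.8%) and 4 of 8 in adult WT (14.5%), the last being 2 sites at Rbpj and 1 each at Notch2 and Notch3. Those 2 Rbpj sites, of 128 and 117 bp, are narrower than the window, and their CAGATG lay outside the sites themselves. TTGGCA stood in 1 of 7 at E18.5 (13.7%), 2 of 27 at P0 (12.2%), 0 of 5 in adult HET (7.77%) and 1 of 8 in adult WT (9.77%). TGGGAA and AAAGTT can overlap in TGGGAAAGTT, so the same bases may count for both.

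The rest of the pathway was read by the same 5 kb rule, over 47 genes that modify, cut, assist or answer the receptors. Of these, 26 (55.3%) had a site at E18.5, 36 (76.6%) at P0, 17 (36.2%) in adult HET and 22 (46.8%) in adult WT. Those with a site in all 4 lists were Aph1a and Psenen, subunits of the gamma-secretase that releases the intracellular domain, Numb, which inhibits Notch, Fbxw7, which marks it for breakdown, the coactivators Maml2, Kat2b and Ep300, the RBPJ-interacting corepressor Cir1, and the target gene Hes1. For Hes1 the adult HET site, of 82 bp, lay near a start of a noncoding transcript only, as did the adult WT site of Ep300, of 230 bp. The 8 with none in any list were the ligand-like Dlk1, the ubiquitin ligases Neurl1a and Neurl1b, the Fringe glycosyltransferases Lfng, Mfng and Rfng, and the targets Hey2 and Heyl. The 5 genes with a site in 1 list only, Dlk2, Itch, Dtx3, Ctbp1 and Nrarp, all had it at P0.

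Most of the 47 genes have a CpG-rich start, and the shares for such genes given above (50.9% at E18.5, 74.1% at P0, 36.6% in adult HET and 33.9% in adult WT) stand beside the counts by role that follow, none of which was tested. The genes of receptor cleavage had a site in 9 of 9 cases at E18.5, 8 of 9 at P0, 4 of 9 in adult HET and 3 of 9 in adult WT. The nuclear coactivators that join RBPJ and the intracellular domain had one in 6 of 6 at E18.5 and P0, 3 of 6 in adult HET and 6 of 6 in adult WT. Of the corepressors 3 of 5 at E18.5, 5 of 5 at P0, 3 of 5 in adult HET and 2 of 5 in adult WT had one. The enzymes that place sugars on the receptors had one in 0 of 5 at E18.5, 2 of 5 at P0, 1 of 5 in adult HET and 1 of 5 in adult WT. Of the targets, 2 of 6 had one at E18.5, 4 of 6 at P0, 2 of 6 in adult HET and 2 of 6 in adult WT. The inhibitors and turnover genes had one in 4 of 8 at E18.5, 6 of 8 at P0, 4 of 8 in adult HET and 5 of 8 in adult WT.

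The remaining roles had 4 genes each. Of the noncanonical ligands 0 of 4 at E18.5, 3 of 4 at P0, 0 of 4 in adult HET and 2 of 4 in adult WT had a site. Of the genes by which a cell takes up its own bound ligand, 2 of 4 had one at E18.5 and P0, 0 of 4 in adult HET and 1 of 4 in adult WT. Whether these roles differ from the receptors and ligands beyond their promoter type and length was not tested.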

How the data were processed

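The authors deposited 1 list of MYT1L site positions per group, made with nf-core/cutandrun v1.0 on mm10 per the labels. Each row holds a chromosome, start and end without score or count, and replicates were already merged. Aligner, peak caller, threshold and use of IgG were not given in the sources used here. IgG libraries were not analysed here. Some adult antibody titles read Myt2l or Myt3l and were taken as MYT1L, the only target in the methods.

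Sites were joined to GENCODE M21 (GRCm38.p6, 21 chromosomes) by at least 1 bp, over all annotated transcripts, with Python 3.11.15, numpy 2.4.6 and pysam 0.24.0. Positions are 1-based. Backgrounds used the same rule over all protein-coding genes or all sites, without a test. All 10 members were named, and other pathway genes where they had sites in all lists, in none or in 1. Members and lists were chosen with earlier results of these data known. The joins were tested on simulated data. Alternatives varied the distance, the starts, the sites, the overlap and the word window.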

Additional observations from a re-analysis of the deposited data

How the results depend on the processing

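Leaving out a replicate was not possible, since each list is merged over its libraries, and no paired analysis was possible because no result comes from a test. Counts of genes near a start depended on which starts were used. With the gene start alone, 2 of the 10 genes had a site within 5 kb at E18.5 (28.8% of all genes), 5 at P0 (44.1%), 0 in adult HET (21.1%) and 0 in adult WT (4051 of 21938 genes). With starts of protein-coding transcripts only, an alternative chosen after seeing the data, 3 had one at E18.5 (30.3% of all genes), 6 at P0 (46.6%), 1 in adult HET (25.2%) and 0 in adult WT (21.2%). Within 1 kb, 0 had one in adult HET, and within 10 kb, 3 in adult WT. No share of all genes is given at these distances, so nothing is read from either count. Of the other pathway genes, coding starts left 26 at E18.5, 35 at P0, 15 in adult HET and 18 in adult WT.

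Restricting to sites wider than their list's median left 12 sites at P0, 2 in adult HET and 5 in adult WT. Extending every site by 250 bp on each side let 1 of 7 E18.5 sites meet adult WT, beside 20.5% of all E18.5 sites. It also let 1 of 8 adult WT sites meet E18.5, beside 9.85% of all adult WT sites. Both were at Notch4, and nothing about that gene is read from them. AAAGTT stood in 3 E18.5 and 9 P0 sites over the whole site. Within 250 bp of the midpoint it stood in 2 at E18.5, 11 at P0 and 3 in adult HET, beside 36.3%, 35.1% and 38.7% of all sites. The other 55 values stayed within 1.5 times. Unknown depth limits every absence reported.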
